A study of Mus musculus with 21 samples.

Results

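The genes described here encode 10 secreted plasma proteins of the kind made by yolk sac, fetal liver and fetal gut: Afp, Ttr, Trf, Apom, Fga, Fgg, F9, Itih3, Serpina1b and Ahsg. They were followed on every probe that the platform annotation assigns to them, 16 of 45281 probes. All 16 passed the detection filter, and the 10 genes are among the 9961 genes tested. The genes were proposed with the difference between genotypes in view, so their differences between genotypes are given as a description, with no test. RNA of whole small intestine, taken from embryos at E18.5, was hybridised to Illumina WG6_V2 bead arrays, 1 array per embryo sample. The 10 mutants, titled Prdm1-/-, carried Villin-Cre with the Prdm1 alleles CA and BEH. The 11 controls, titled Prdm1+/+, carried Prdm1CA/+. All were of mixed strain, and the mothers were Prdm1 CA/CA and carried the R26R allele. Villin-Cre, which acts in the intestinal epithelium, and the BEH allele are named for the mutants alone, so the effects of Cre and of the Prdm1 alleles cannot be told apart in these groups. The labels call the samples biological replicates and give neither litter nor sex.

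Plasma proteins are made mostly by hepatocytes after birth. Before birth the visceral yolk sac and the gut epithelium also make some of them. The same transcription factors (among them HNF4, FOXA and C/EBP proteins) act on these genes in each tissue. Prdm1 encodes the DNA-binding repressor Blimp1, which is present in the fetal gut epithelium and is lost from it around weaning.

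Raw signals had medians of 56.6 to 79.7 intensity units on the mutant arrays and 59.0 to 79.5 on the control arrays, and 14614 to 16085 and 14596 to 15942 probes were detected. One Prdm1 probe was detected on all 10 mutant arrays and on none of the 11 control arrays (at least 7.31-fold higher in mutants). That is not the pattern of a lost transcript. A further Prdm1 probe stayed undetected throughout. The position of the probes with respect to the modified exons was not analysed here. The groups are therefore called labelled mutants and labelled controls, and each direction rests on those labels. The colon markers Car1 and Hoxd10 were detected on 6 labelled mutant arrays (4 and 6 to 10) and on no labelled control array. Summed intensity of 15 pancreatic enzyme genes ran from 1590 to 92970 on labelled mutant arrays and from 2423 to 51213 on labelled control arrays. Of 15 small intestinal epithelial markers, 12 or 13 were detected on every array. Because whole tissue was profiled, fewer cells of a type and less RNA per cell cannot be told apart.

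Of the 10 genes, 7 had every labelled mutant array below every labelled control array: Afp, Ttr, Trf, Apom, Fga, F9 and Itih3. Over all genes tested, 2.55% showed that pattern, and since the genes were chosen on this contrast nothing is read from their number. On probes the count was 10 of 16. By the limma test used for other genes below, 23.2% of all genes differed between the genotypes. Fgg, Serpina1b and Ahsg overlapped between the groups. All values below are normalised log2 intensity, and differences are labelled mutants minus labelled controls.

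**Figure D1:**
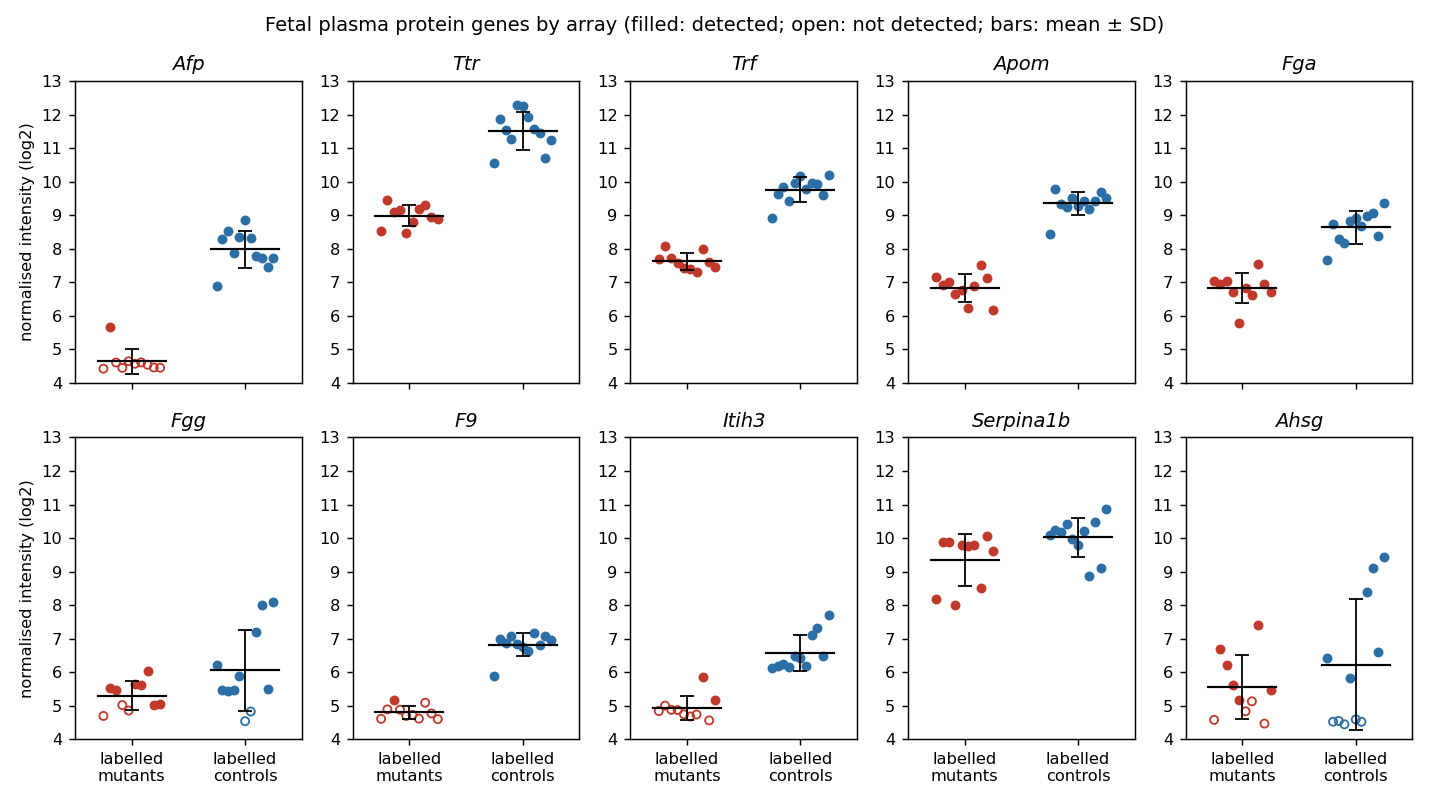
Normalised log2 intensity of the brightest probe of each of the 10 genes on the 10 labelled mutant arrays (left in each panel) and the 11 labelled control arrays (right). Points are arrays, filled where the probe was detected and open where it was not, and black bars are the mean ± SD. In 7 panels the groups do not overlap, while they overlap for Fgg, Serpina1b and Ahsg.

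Among the carriers, Afp encodes alpha-fetoprotein, the fetal relative of albumin. Its lowest, median and highest values were 4.43, 4.56 and 5.66 in labelled mutants, against 6.88, 7.88 and 8.85 in labelled controls. The probe was detected on 1 of 10 labelled mutant arrays, number 2, and on all 11 labelled control arrays. With means of 4.65 ± 0.37 (SD, n = 10) in labelled mutants and 7.98 ± 0.55 (SD, n = 11) in labelled controls, it was at least 7.04-fold lower in labelled mutants. That bound sets the labelled control mean against, per array, the higher of the dimmest detected signal and the probe's own signal.

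The Afp promoter window is shown because Afp had the largest difference of the 10 genes and its window held a match to C/EBP, a factor family of liver genes. It lies at chr5:90490464-90490763 on the plus strand of GRCm38.p6 in the RefSeq promoter table, and runs from 250 bases before to 50 bases after the gene start. Capitals mark the match.
Afp: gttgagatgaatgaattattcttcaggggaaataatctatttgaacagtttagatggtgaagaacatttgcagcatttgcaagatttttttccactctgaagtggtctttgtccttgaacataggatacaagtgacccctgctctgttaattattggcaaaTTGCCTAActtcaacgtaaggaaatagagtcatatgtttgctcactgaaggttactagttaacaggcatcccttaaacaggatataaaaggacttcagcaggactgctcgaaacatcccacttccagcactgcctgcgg
The C/EBP match, TTGCCTAA, began at -89 from the start of the gene.

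The searches used both strands and the letters TTGCNNAA for C/EBP and AGNGAAAG for Blimp1, over 8 of the 10 genes, those with a window among the windows searched. These windows did not cover every chromosome. A gene could have several of them, while the first window stood for each of the 8 genes. TTGCNNAA was found in 5 windows (Afp, Fga, F9, Serpina1b and Ahsg), against 10.8% of the 32851 windows searched. AGNGAAAG was in none of the 8 windows and in 8.63% of those searched. The windows of Apom, Fgg and Itih3 held no match to either. No match overlapped another. A match is a description of letters in a window of 300 bases and shows no binding.

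Ttr encodes transthyretin, which carries thyroxine and, with retinol-binding protein, vitamin A. Its lowest, median and highest values were 8.48, 9.02 and 9.45 in labelled mutants, against 10.55, 11.54 and 12.30 in labelled controls. Every array detected it, so unlike Afp it kept a measured signal in labelled mutants. The means were 8.99 ± 0.32 (SD, n = 10) and 11.52 ± 0.56 (SD, n = 11), a difference of -2.53, or 5.78-fold lower.

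Trf encodes transferrin, the iron carrier of plasma. It read 7.31, 7.59 and 8.09 (lowest, median and highest) in labelled mutants, against 8.93, 9.85 and 10.19 in labelled controls. The highest labelled mutant array, number 2, stayed below the lowest labelled control array, number 1. The difference was -2.14, or 4.40-fold lower in labelled mutants.

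Apom encodes apolipoprotein M, which carries sphingosine 1-phosphate on high-density lipoprotein. It read 6.17, 6.90 and 7.52 in labelled mutants, against 8.45, 9.43 and 9.77 in labelled controls (difference -2.51, 5.69-fold lower). Its other probe gave -2.39. On both probes labelled control 1 was the lowest of its group, as it was for Afp, Ttr, Trf, Fga and F9.

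Of the clotting proteins, Fga encodes the alpha chain of fibrinogen. It read 5.79, 6.89 and 7.55 in labelled mutants, against 7.65, 8.74 and 9.36 in labelled controls. The highest labelled mutant array, number 8, lay just below labelled control 1. The difference was -1.82 on this probe and -1.70 on the other, that is 3.54-fold and 3.26-fold lower in labelled mutants.

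Fgg encodes the gamma chain of the same hexamer and did not share that pattern. It read 4.70, 5.27 and 6.04 in labelled mutants, detected on 7 arrays, against 4.54, 5.49 and 8.11 in labelled controls, detected on 9 arrays. The 3 highest labelled control arrays, numbers 8, 9 and 11, read 7.20, 8.01 and 8.11, and the other labelled controls reached at most 6.22. The difference was -0.76 over all arrays and -0.12 without those 3 labelled controls. The probe for Fgb, the beta chain, was not detected on any array.

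F9 encodes clotting factor IX, a vitamin K-dependent protease precursor that activates factor X. It was detected on 1 of 10 labelled mutant arrays and on all 11 labelled control arrays, at 4.60, 4.75 and 5.18 (lowest, median and highest) against 5.88, 6.86 and 7.18. The signal was at least 3.25-fold lower in labelled mutants. Labelled control 1 stood below the other 10 labelled controls, which lay between 6.62 and 7.18.

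Of the inhibitors, Itih3 encodes a heavy chain of inter-alpha-trypsin inhibitor, which is attached to hyaluronan in tissues. Its brighter probe was detected on 2 of 10 labelled mutant arrays and on all labelled control arrays, at 4.57, 4.86 and 5.86 against 6.13, 6.43 and 7.71, and was at least 2.60-fold lower in labelled mutants. Labelled controls 8, 9 and 11 read 7.10, 7.31 and 7.71, above the 6.13 to 6.48 of the other 8. The dimmer probe was detected on no labelled mutant array and on all 11 labelled control arrays, and was at least 1.45-fold lower.

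Ahsg encodes fetuin A, a plasma protein that binds calcium phosphate and limits its deposition. Both groups covered most of its range: 4.47, 5.33 and 7.41 in labelled mutants (detected on 6 of 10 arrays) and 4.45, 5.82 and 9.43 in labelled controls (detected on 6 of 11 arrays). The high arrays were labelled mutant 8 at 7.41 and labelled controls 8, 9 and 11 at 8.38, 9.12 and 9.43. The remaining labelled controls lay between 4.45 and 6.60. The difference of -0.66 over all arrays became 0.38 without those 3 labelled controls, so its direction rested on them. The promoter window of Ahsg is shown as that of the gene whose arrays differed most within a genotype. It lies at chr16:22891765-22892064 on the plus strand of GRCm38.p6, with its C/EBP match, which begins at -32 and reads on the other strand, in capitals.
Ahsg: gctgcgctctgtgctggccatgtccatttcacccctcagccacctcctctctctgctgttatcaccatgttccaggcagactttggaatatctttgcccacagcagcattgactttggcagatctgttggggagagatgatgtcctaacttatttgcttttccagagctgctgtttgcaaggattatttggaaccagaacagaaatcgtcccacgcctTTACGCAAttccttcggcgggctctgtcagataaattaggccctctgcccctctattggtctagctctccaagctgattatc

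The genes whose pattern over the 11 labelled control arrays was most like that of Ahsg were Kng1 (kininogen, r = 0.98), Crp (C-reactive protein, r = 0.98), Vtn (vitronectin, r = 0.96) and the calprotectin subunits S100a8 (r = 0.95) and S100a9 (r = 0.92). These values of r describe likeness to arrays of which 3 stand apart, and no p is attached to them. Kng1 read 7.91, 8.51 and 9.23 on labelled controls 8, 9 and 11, and 5.57 to 6.63 on the other 8. Vtn was detected on those 3 labelled controls, at 5.82 to 6.68, and on none of the other 8. Afp did not follow: it read 7.78, 7.72 and 7.74 on the same 3 arrays, near the labelled control median of 7.88. Serpina1b split them, with 8.88 on labelled control 8 but 10.48 and 10.87 on 9 and 11.

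Hepatocyte markers were counted beside these values. Of 22 genes with a probe that encode liver enzymes, transporters or receptors and no plasma protein, labelled mutants detected 1 to 4, labelled controls 8, 9 and 11 detected 5, 6 and 9, and the other labelled controls 3 or 4. The summed intensity of the 22 genes was 520 to 615 on labelled mutant arrays, against 801 to 854 on those 3 labelled controls and 722 to 766 on the others. Without Hal and Hgd, both lower in labelled mutants, the sum of the other 20 was 450 to 502 on labelled mutant arrays. It was 528 to 616 on the 3 labelled controls and 459 to 501 on the other labelled controls. These sums count every gene, detected or not, with the offset of 16 that normalisation added to each. Much of each sum is therefore background, and ratios of the sums are not ratios of hepatocyte signal. Of the 20, labelled mutants detected 0 to 3, labelled controls 8, 9 and 11 detected 3, 4 and 7, and the other labelled controls 1 or 2. Of the 22 genes 12 were not detected on any array, among them Tat, Slc10a1 and Cyp7a1. Alb, the albumin gene, was likewise not detected on any array, but neither were Fabp1 and Fabp2, which are abundant in intestinal epithelium, so a silent probe on this platform says little about its gene. The part of liver RNA in the high arrays was not tested.

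**Figure D2:**
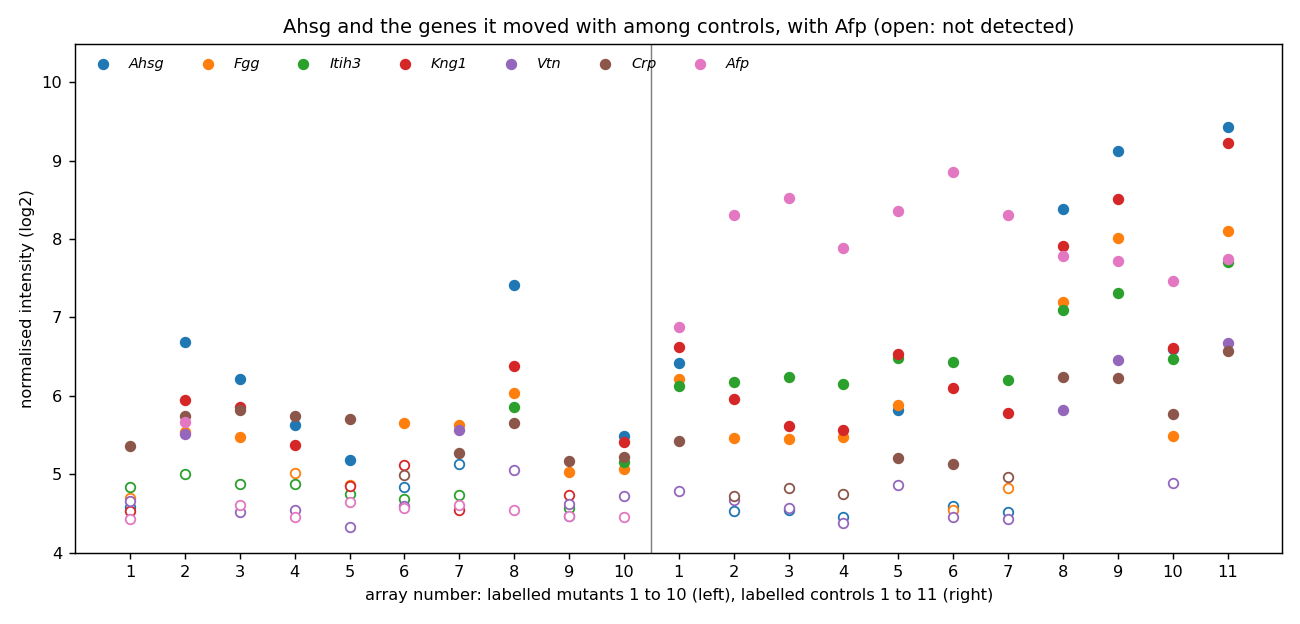
Normalised log2 intensity of Ahsg, Fgg, Itih3, Kng1, Vtn, Crp and Afp on each array, labelled mutants 1 to 10 on the left and labelled controls 1 to 11 on the right, open where a probe was not detected. On labelled controls 8, 9 and 11 Ahsg reached 8.38 to 9.43 and the other genes but Afp were also at their highest, while Afp stayed between 7.72 and 7.78.

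Serpina1b encodes an alpha-1-antitrypsin, an inhibitor of neutrophil elastase, from a cluster of near-identical mouse genes. It was detected on every array and read 8.00, 9.78 and 10.06 (lowest, median and highest) in labelled mutants, against 8.88, 10.18 and 10.87 in labelled controls. Within each genotype it took a lower and a higher level. Labelled mutants 1, 4 and 8 read 8.00 to 8.51 and the other 7 read 9.60 to 10.06, while labelled controls 8 and 10 read 8.88 and 9.10 and the other 9 read 9.80 to 10.87. The difference was -0.68 over all arrays and -0.31 without labelled controls 8 to 11 and labelled mutants 1, 4 and 8.

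The relatives of Serpina1b took the same levels on the same arrays. On its brighter probe Serpina1e was not detected on labelled mutants 1, 4 and 8 (4.33 to 4.59) or labelled controls 8 and 10 (4.62 and 4.73). On the other arrays that probe read 7.94 to 9.04 in labelled mutants and 8.58 to 9.80 in labelled controls. The dimmer Serpina1e probe was detected on no array. The brightest probes of Serpina1c and Serpina1a were undetected on exactly those 5 of 21 arrays. The dimmer Serpina1a probe, detected on 14 arrays, was also undetected on labelled mutants 6 (5.04) and 7 (4.98). Serpina1d was detected throughout, at 6.94 to 7.25 on labelled mutants 1, 4 and 8 against 8.97 to 9.48 on the other labelled mutants, and at 7.78 and 7.87 on labelled controls 8 and 10 against 9.20 to 10.31 on the other labelled controls. None of these 4 relatives passed the test between genotypes (limma adjusted p from 0.168 for Serpina1a to 0.423 for Serpina1c). A probe of 1 Serpina1 gene may read its relatives, and probe sequences were not analysed here, so the 5 genes are not separate evidence.

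The promoter windows of Serpina1b and Serpina1e are shown because their signals moved together and their sequences are close. Both are on the minus strand of GRCm38.p6, at chr12:103738140-103738439 and chr12:103956848-103957147, and capitals mark the C/EBP match that both contain.
Serpina1b: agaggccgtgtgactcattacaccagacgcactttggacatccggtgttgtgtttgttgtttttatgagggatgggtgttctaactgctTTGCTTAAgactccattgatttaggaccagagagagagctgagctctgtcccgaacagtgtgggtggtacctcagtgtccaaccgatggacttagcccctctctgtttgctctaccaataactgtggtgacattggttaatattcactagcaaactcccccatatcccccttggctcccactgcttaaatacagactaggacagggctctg
Serpina1e: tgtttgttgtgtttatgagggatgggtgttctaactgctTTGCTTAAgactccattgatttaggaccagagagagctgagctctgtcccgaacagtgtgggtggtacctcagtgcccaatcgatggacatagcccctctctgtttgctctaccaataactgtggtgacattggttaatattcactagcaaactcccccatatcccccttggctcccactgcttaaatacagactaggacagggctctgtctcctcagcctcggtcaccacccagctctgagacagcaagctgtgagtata
Over the 10 pairs of the 5 Serpina1 windows, aligned end to end, identity ran from 63.9% to 91.4%, with 69.3% for Serpina1b and Serpina1e, whose windows start at different offsets in the shared sequence.

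**Figure D3:**
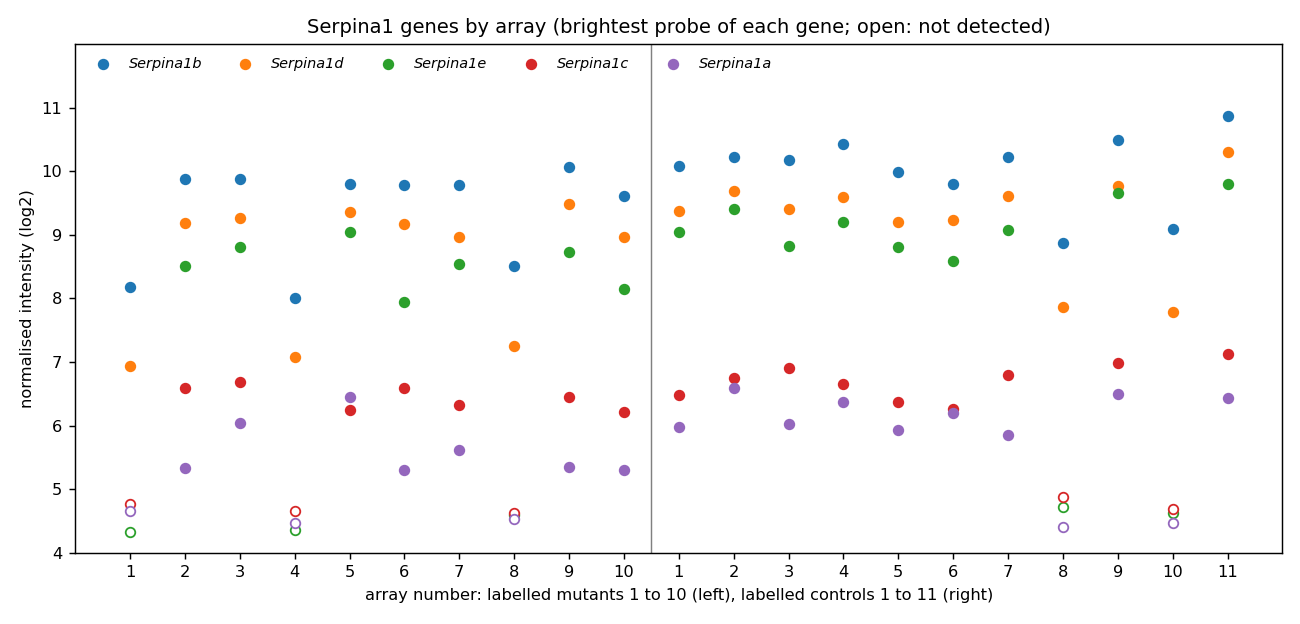
Normalised log2 intensity of the brightest probe of each of 5 Serpina1 genes on labelled mutants 1 to 10 (left) and labelled controls 1 to 11 (right), open where not detected. All 5 genes were low on labelled mutants 1, 4 and 8 and on labelled controls 8 and 10, where Serpina1e lay between 4.33 and 4.73.

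Whether the genes varied together from embryo to embryo was tested inside each genotype, on genes detected on at least 80% of its arrays. Arrays were left out where a gene split into separate clusters. Of 35 pairs in labelled controls, 29 had a positive r and 2 passed after Benjamini-Hochberg adjustment over all 44 pairs of both genotypes. How often pairs of other genes were positive on these arrays was not computed, so nothing is read from the 29. Afp and Ttr varied together (r = 0.89, rho = 0.84, n = 11, two-sided permutation p = 0.00013, adjusted p = 0.00484 for r and 0.0427 for rho). Trf and Fga did so too (r = 0.91, rho = 0.85, n = 11, two-sided permutation p = 0.00022, adjusted p = 0.00484 for r and 0.0427 for rho). Without the 2 arrays farthest from the median of the first gene, r was 0.79 and 0.73 for these 2 pairs. Some pairs that did not pass changed sign there.

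The first axis of variation within genotypes held 32.5% of the variance and was defined from the data. On the 6 labelled control arrays on its low side r was 0.90 for Afp with Ttr and 0.86 for Trf with Fga, and the 5 on the high side were too few. Afp with Fgg did not pass after adjustment (r = -0.50, n = 11, permutation p = 0.116, adjusted p = 0.319). Its rho was -0.72 (permutation p = 0.0162, adjusted p = 0.143). Afp with F9 did not pass either (r = 0.38, n = 11, permutation p = 0.242, adjusted p = 0.426, rho = -0.11). In labelled mutants none of 9 pairs passed after adjustment, and an unadjusted permutation p under 0.05 was found for r in 1 pair and for rho in 3. The highest r was that of Apom with Serpina1b (r = 0.82, n = 7, two-sided exact permutation p = 0.00456, adjusted p = 0.0669). Afp could not be examined there, since it was detected on 1 array.

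**Figure D4:**
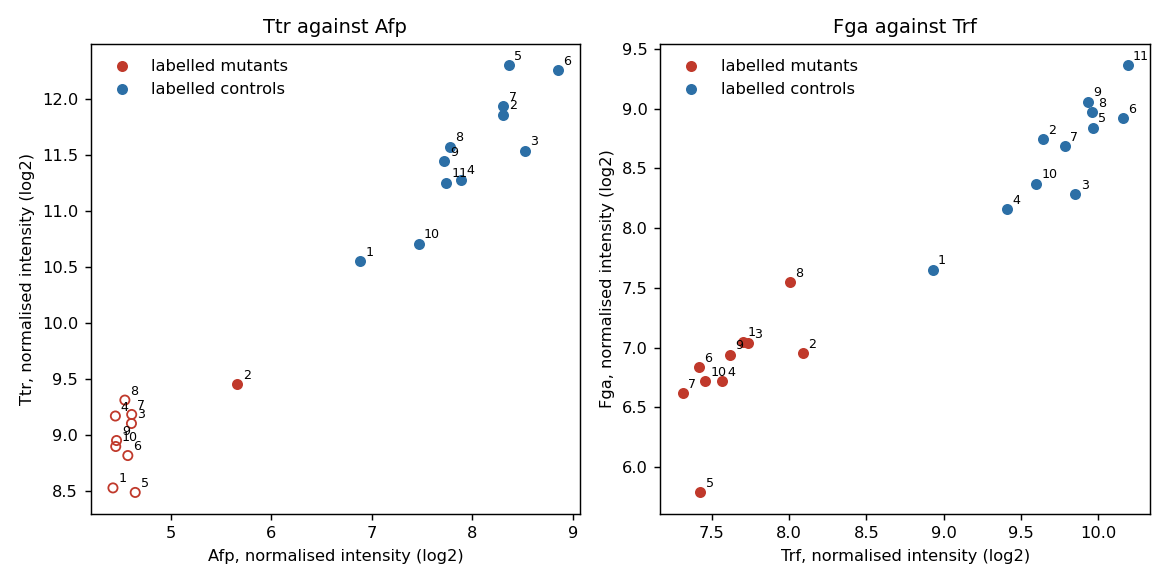
Ttr against Afp (left) and Fga against Trf (right), both axes in normalised log2 intensity, with 1 numbered point per array, open where a gene was not detected. Among the 11 labelled controls the points lie along a rising line in both panels (r = 0.89 and 0.91), and labelled mutants lie below and to the left of all labelled controls.

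The 5 genes most like Afp over the 11 labelled control arrays were Tspyl3 (r = 0.91), Tlcd1, Trim46, Wdr74 (r = 0.88, 0.88 and 0.87) and Iars, an isoleucyl-tRNA synthetase gene (r = 0.87). They were picked as the highest r among all other genes tested. With so few arrays such values can arise by chance, and no p is attached to them. Tspyl3 fell in labelled mutants (7.34 against 7.86 in labelled controls, difference -0.53 ± 0.07 SE, limma adjusted p = 6.45e-06), as did Tlcd1 (-0.37 ± 0.08, adjusted p = 0.00183) and Trim46 (-0.25 ± 0.08, adjusted p = 0.0238). Wdr74 (0.12 ± 0.08) and Iars (0.08 ± 0.08) did not pass the test. Trim46 no longer passed without labelled controls 8, 9 and 11 (adjusted p = 0.0593).

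Other plasma protein genes were read from 4 lists by role, which leave out the 10 genes. Over all 9961 genes tested, 12.6% were lower and 10.6% higher in labelled mutants (limma, adjusted p under 0.05 over all 16641 probes), with a median difference of 0.01. Of 7 other clotting and fibrinolysis genes tested, 4 fell and 0 rose (57.1%, median -0.33). F10, factor X, the substrate of factor IX, fell to 10.08 ± 0.23 (SD, n = 10) in labelled mutants, against 10.96 ± 0.14 (SD, n = 11) in labelled controls (-0.87 ± 0.08 SE, adjusted p = 2.81e-08). F2, prothrombin, was detected on 3 labelled mutant and 10 labelled control arrays and was at least 1.29-fold lower in labelled mutants (adjusted p = 0.00511). Proz, protein Z, fell by 0.33 on the log2 scale (adjusted p = 0.00168). Kng1 was 5.27 ± 0.63 against 6.77 ± 1.24 (-1.49 ± 0.40, adjusted p = 0.00898), and without labelled controls 8, 9 and 11 the difference was -0.83 (adjusted p = 0.022). Proc, Pros1 and Serpinf2, which restrain clotting or its lysis, did not pass. Without the 6 labelled mutant arrays with colon markers, F2, Proz and Kng1 no longer passed (adjusted p = 0.292, 0.227 and 0.139), while F10 did. That left 4 labelled mutant arrays, and the differences of Proz and Kng1 were -0.17 and -1.47 there.

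Of 8 other inhibitors tested, 0 fell and 1 rose (12.5%, median -0.28): Serpinf1, pigment epithelium-derived factor, at 8.11 ± 0.23 (SD, n = 10) in labelled mutants against 7.86 ± 0.12 (SD, n = 11) in labelled controls (0.25 ± 0.08 SE, adjusted p = 0.0283). It no longer passed under 8 of 12 alternatives, with adjusted p from 0.0527 to 0.362 in those. Ambp, the precursor of the inhibitor light chain that pairs with Itih proteins, read 8.39 ± 0.33 against 8.47 ± 0.40 and did not pass.

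Of 10 other carriers and apolipoproteins tested, 2 fell and 0 rose (20%, median -0.11). They were Apoc2 (-0.44 ± 0.14 SE, adjusted p = 0.0327) and Apoc3 (-0.27 ± 0.09, adjusted p = 0.0358), an activator and an inhibitor of lipoprotein clearance. Neither passed without labelled controls 8, 9 and 11 (adjusted p = 0.097 and 0.152). Apoa1 and Apoa4, major products of enterocytes, read 15.26 against 15.33 and 15.30 against 15.36, close to the highest signals on the arrays, and did not pass.

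Of 13 complement and acute phase genes tested, 3 fell and 0 rose (23.1%, median -0.28), against 23.2% of all genes changed in either direction. C8g, the gamma chain of complement component 8, fell to 8.02 ± 0.34 (SD, n = 10) in labelled mutants, against 8.94 ± 0.36 (SD, n = 11) in labelled controls (-0.92 ± 0.15 SE, adjusted p = 4.89e-05). C9 was detected on 0 labelled mutant and 9 labelled control arrays and was at least 1.34-fold lower (adjusted p = 3.84e-05). C6 was detected on 1 labelled mutant and 7 labelled control arrays and was at least 1.08-fold lower (adjusted p = 0.0215). It no longer passed under several alternatives. Its adjusted p was 0.0663 without labelled controls 8, 9 and 11 and 0.243 without the 6 labelled mutant arrays with colon markers. These 3 encode parts of the membrane attack complex, while C8b, of the same complex, read 5.80 ± 0.29 against 6.03 ± 0.34 and did not pass. C8a, also of that complex, was not detected on any array.

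Of 5 hepatocyte genes that encode no plasma protein and were tested, 2 fell and 0 rose (40%, median -0.38). Both act in amino acid breakdown. Hal, the histidine ammonia-lyase, was detected on 0 labelled mutant and 11 labelled control arrays and was at least 2.34-fold lower in labelled mutants (adjusted p = 4.48e-09). Hgd, homogentisate dioxygenase of tyrosine breakdown, read 5.88 ± 0.35 in labelled mutants against 7.43 ± 0.28 in labelled controls (-1.54 ± 0.13 SE, adjusted p = 4.59e-09). Arg1, Hpd and Amdhd1 did not pass.

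Of 8 genes of fetal growth, 2 fell and 2 rose (50%, median 0.07). Cdkn1c, an imprinted inhibitor of cell division, fell to 13.02 ± 0.16 (SD, n = 10) in labelled mutants, against 14.18 ± 0.16 (SD, n = 11) in labelled controls (-1.16 ± 0.07 SE, adjusted p = 3.57e-11). Igf2, the imprinted fetal growth factor, fell by 0.41 on the log2 scale (adjusted p = 1.81e-05). Dlk1 (0.47 ± 0.13, adjusted p = 0.0124) and Peg3 (0.32 ± 0.09, adjusted p = 0.016), also imprinted, rose, but neither passed with median scaling of the arrays (adjusted p = 0.108 and 0.243).

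**Figure D5:**
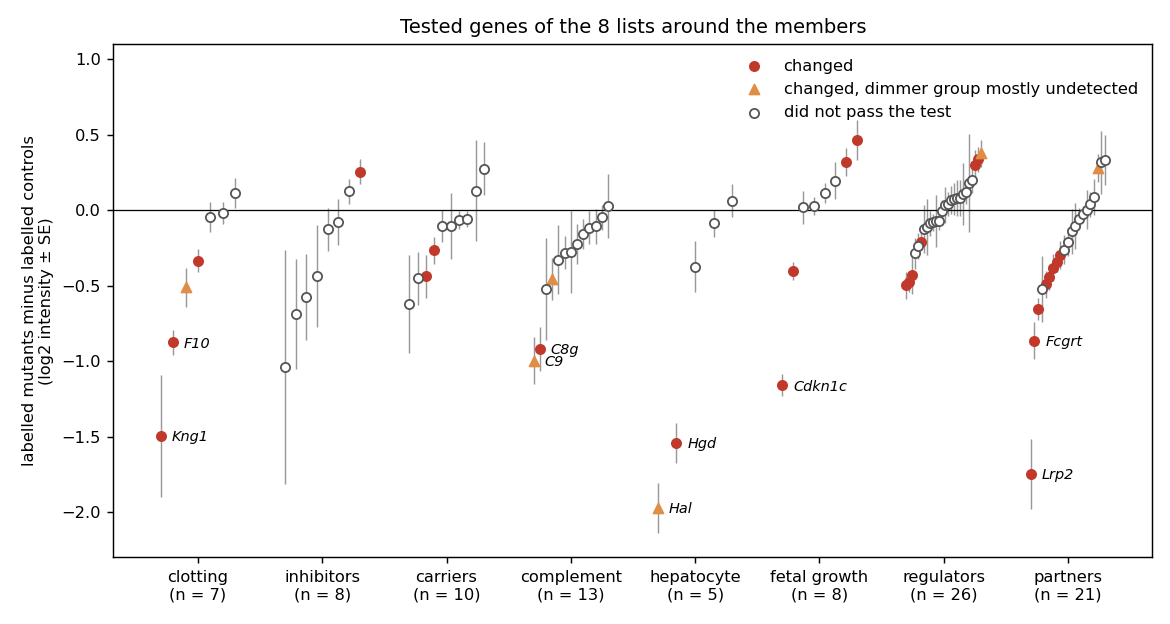
Difference in log2 intensity, labelled mutants minus labelled controls ± SE, of each tested gene of 8 lists, filled where the gene passed the limma test over all probes. Triangles mark genes that passed but were detected on the minority of arrays in the dimmer group, for which only a bound is read. Lrp2 (-1.75), Hgd (-1.54) and Kng1 (-1.49) lie lowest of the genes drawn as filled circles.

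Transcription factors known to act on plasma protein genes were tested as a list of 26, of which 4 fell and 3 rose (26.9%, median 0.01). Cebpa read 5.49 ± 0.33 (SD, n = 10) in labelled mutants, against 5.91 ± 0.28 (SD, n = 11) in labelled controls (-0.43 ± 0.13 SE, adjusted p = 0.0175). Cebpb read 10.13 ± 0.22 against 10.63 ± 0.19 (-0.50 ± 0.09, adjusted p = 0.000214), and the bile acid receptor gene Nr1h4 fell by 0.48 on the log2 scale (adjusted p = 5.7e-06). Gata6 also fell, by 0.21 (adjusted p = 0.00945). Zhx2, whose product is known to repress Afp in mouse liver after birth, was detected on 7 labelled mutant and 1 labelled control arrays and rose by at least 1.11-fold (adjusted p = 0.00346). Hnf4g (0.34 ± 0.08, adjusted p = 0.00494) and Nfib (0.30 ± 0.10, adjusted p = 0.0356) rose too. Without the 6 labelled mutant arrays with colon markers, 3 of the 7 passed, namely Cebpb, Nr1h4 and Hnf4g. Cebpa, Zhx2, Gata6 and Nfib did not pass there (adjusted p = 0.195, 0.152, 0.291 and 0.639). With 4 labelled mutant arrays left, the differences of Cebpa, Gata6 and Nfib were -0.41, -0.12 and 0.13.

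Hnf4a, a main activator of these genes, read 10.91 in both groups (-0.01 ± 0.07 SE, adjusted p = 0.97). Zbtb20, a further repressor of Afp in mouse liver, read 6.90 ± 0.44 against 6.98 ± 0.40 and did not pass (adjusted p = 0.826).

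Of 21 receptors, ligands and processing enzymes of the 10 proteins, 8 fell and 1 rose (42.9%, median -0.21). Lrp2, megalin, which takes up transthyretin and other plasma proteins from the gut and kidney lumen, fell to 6.59 ± 0.53 (SD, n = 10) in labelled mutants, against 8.34 ± 0.60 (SD, n = 11) in labelled controls (-1.75 ± 0.23 SE, adjusted p = 4.17e-06). Fcgrt, the neonatal Fc receptor, which binds IgG and albumin, fell by 0.87 on the log2 scale (adjusted p = 1.3e-05). Icam1, a receptor for fibrinogen on endothelium, fell by 0.66 (adjusted p = 3.61e-07). The iron genes Ftl1 (-0.49 ± 0.09, adjusted p = 0.000259), a ferritin chain, and Slc40a1 (-0.30 ± 0.09, adjusted p = 0.0257), ferroportin, fell, while the transferrin receptor gene Tfrc did not pass (-0.52 ± 0.22, adjusted p = 0.101). Slc40a1 no longer passed under several alternatives. Its adjusted p was 0.11 without labelled controls 8, 9 and 11 and 0.429 without the 6 labelled mutant arrays with colon markers. Furin, which removes the propeptide of factor IX, and Vkorc1, which recycles vitamin K, fell by 0.45 and 0.35 (adjusted p = 0.000265 and 0.000377), and Ggcx, which carboxylates factor IX, read 5.40 against 5.39. Lrp1 was the gene that rose, by at least 1.02-fold (adjusted p = 0.0319), detected on 5 labelled mutant and 1 labelled control arrays. It no longer passed under several alternatives, among them median scaling (adjusted p = 0.103) and the deposited processed values (adjusted p = 0.0828).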

How the data were processed

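The authors deposited 1 linear intensity per probe and array without background subtraction, and a detection p-value for each, per the file headers. Per the submitters' processing notes, the software was GenomeStudio 2009.2. Their processed intensity values, also deposited, served as an alternative. No genome build is named in the sources used here.

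From the raw intensities, neqc of limma 3.58.1 (R 4.3.3) subtracted background by the detection p-values, added an offset of 16, normalised by quantiles and took log2. The offset draws differences of dim probes towards 0. Probes with a detection p under 0.01 on at least 5 of 21 arrays were tested (16641), and the probe with the highest mean stood for its gene. One symbol was given for 34885 probes and several for 18, while 10378 had none. The symbols of 34807 were matched to the RefSeq gene table by gene number. Genotypes were compared with lmFit and eBayes, and p-values were adjusted by Benjamini-Hochberg over the 16641 probes. A gene detected on the minority of arrays in its dimmer group has a bound only. Correlations used 100000 permutations, or all orders for small n. Both methods were tested on simulated data.

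The genes, lists and alternatives were chosen with earlier results of these data known. The other genes named are up to 4 changed genes of each list by size (2 with the smallest p where none changed), the 5 most like Afp and the 5 most like Ahsg over control arrays, and Alb, Prdm1, the Serpina1 genes, Fgb, Hnf4a, Zhx2 and Zbtb20. Further genes were named after their values were seen. The alternatives were other normalisations, filters, a replicate block and arrays left out. Correlations between arrays ran from 0.939 to 0.989, so no pair was identical. The number of arrays limits the precision.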

Additional observations from a re-analysis of the deposited data

Results flagged for a closer look

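In 4 cases the highest or lowest labelled mutant array stood apart from the other 9 by more than Dixon's 95% critical value, which chance exceeds in about 1 in 20 groups. The value of Afp on labelled mutant 2 was 5.66 (next 4.65), the one labelled mutant array that detected Afp. The same array had the highest Ttr (9.45) and Trf (8.09) of the labelled mutants and the lowest signal of the detected Prdm1 probe (6.99). It also detected all 15 pancreatic enzyme genes with a probe, with the highest summed intensity of all 21 arrays (92970, next 51213 on labelled control 9), and the part of pancreatic RNA in its values was not tested. Fga was low on labelled mutant 5 (5.79, next 6.62), on its brighter probe. Labelled mutant 8 was high for Itih3 (5.86, next 5.16) and for the dimmer Ahsg probe (6.56, next 5.51), and it also had the highest Fgg (6.04), Apom (7.52) and Fga (7.55) of the labelled mutants.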

How the results depend on the processing

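Genes of the 10 without overlap between genotypes numbered 7 under 9 of the 10 alternatives run and 8 on the low side of the first axis. The differences of the 7 named in the text kept their direction, while Ahsg ran from -1.24 to 0.45. Genes higher and lower in labelled mutants numbered 1054 and 1253, and 462 and 1253 with median scaling. The 4 alternatives on the axis or colon markers and the one without 7 arrays were added after seeing the data. Genes changed, 2307 in all, were 1251 without the 6 mutant arrays with colon markers, 1377 on the low and 1232 on the high side of the axis, with fewer arrays in each. Clotting genes changed were 1 and 2 without those 6 arrays and on the low side, regulators 3, 4 and 3 without them, on the low side and on the high side, and fetal growth genes 2 with median scaling, without them and on the low side. Inhibitors changed were 0 with median scaling, no filter, the replicate block, without controls 8, 9 and 11, without those 6 arrays, on the high side and without 7 arrays. Carriers were 1 with the deposited values and 0 under the same other settings but median scaling. Complement genes were 1 with a filter of 10 arrays. Correlated pairs were 1 in labelled mutants with the deposited values and 5 in labelled controls without 8, 9 and 11.

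Signs turned, all in genes that did not pass but Car1 (-0.0674) and Hoxd10 (-0.107) without those 6 arrays, where Hnf4a was 0.0308. The 6 arrays were picked because they detected Car1 and Hoxd10, so the rise of these genes was bound to go with them. Signs also turned for Iars (-0.019) and Crp (-0.0095) with median scaling, Crp with no background correction (-0.0088), with the axis as a block (-0.0346) and on the high side (-0.23), and Hnf4a on the high side (0.0018). Without controls 8, 9 and 11, Zbtb20 was 0.007, Vtn 0.18 and S100a8 0.0055. On the low side Vtn was 0.20, S100a8 0.34 and S100a9 0.21. Without 7 arrays Hnf4a was 0.0149, Zbtb20 0.13, Iars -0.005 and Vtn 0.25. The causes of the turns in genes other than Car1 and Hoxd10 were not tested. Replicate numbers are shared by the groups, and same-numbered arrays correlated at -0.25 to 0.30, over 0.1 in 6 of 10 pairs. Differently numbered arrays were not compared, so whether the numbers mark pairs is not known. With the replicate block 882 genes were higher and 1119 lower. Dim probes near background limit the folds of Afp, F9 and Itih3 to bounds, which hold for the background-corrected values: their measured differences without that correction were -2.16, -1.15 and -0.93.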

Other observations

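Markers of other tissues that a dissection could bring were read on the same arrays. Of 13 small intestinal epithelial markers tested, 3 rose and 0 fell in labelled mutants (23.1%, against 23.2% of all genes changed in either direction). They were Krt20 (1.47 ± 0.13 SE, limma adjusted p = 1.22e-08), Anpep (0.84 ± 0.16, adjusted p = 0.000534) and Vil1 (0.64 ± 0.09, adjusted p = 9.06e-06). The other 10, among them Lct and Alpi, did not pass. Of 5 colon markers tested, 3 rose and 1 fell. 1810065E05Rik, detected on 10 labelled mutant and 1 labelled control arrays, was at least 5.69-fold higher (adjusted p = 8.83e-08), and Car1 and Hoxd10, detected on 6 labelled mutant and 0 labelled control arrays, were at least 1.58-fold and 1.44-fold higher (adjusted p = 0.0137 and 0.00848), while Mettl7b, also a gene of other epithelia, fell (-0.98 ± 0.11, adjusted p = 2.15e-07). Of 3 stomach markers tested, Lipf, the gastric lipase, was detected on 1 labelled mutant and 11 labelled control arrays and was at least 3.35-fold lower (adjusted p = 6.15e-11). The other 2, Gkn3 (0.74 ± 0.79 SE) and Pgc (0.54 ± 0.50), had positive differences and did not pass. Of 13 pancreatic enzyme genes tested, Cela1, an elastase gene, fell (-1.31 ± 0.31, adjusted p = 0.00281), but not without the 6 labelled mutant arrays with colon markers (adjusted p = 0.176). None of 5 red cell genes passed, with Hba-a1 at 14.59 ± 0.30 in labelled mutants and 14.78 ± 0.36 in labelled controls.

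Labelled controls 8, 9 and 11 also stood above every other array of both genotypes for Itih4 (5.38 to 6.16, against at most 4.56 in labelled mutants and 4.90 in the other labelled controls) and Azgp1 (5.31 to 7.37, against at most 4.96 and 5.21), genes chosen after their values were seen. Itih4 encodes a relative of Itih3, and Azgp1 a plasma glycoprotein. The cause was not tested.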
